A study of Mus musculus with 6 samples.

Results

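Plasma cell differentiation genes were followed in bulk RNA-seq of splenic B cells that had been cultured toward IgA. The group comprised 10 genes listed by name (*Prdm1*, *Xbp1*, *Irf4*, *Sdc1*, *Jchain*, *Tnfrsf17*, *Ell2*, *Slamf7*, *Cd28* and *Creb3l2*), and all 10 were found by symbol among the 46983 genes of the deposited table. There were 6 libraries, 3 WT and 3 *Hif1a* KO. All cultures were kept for 3 days with LPS (5 μg/ml) and, at 10 ng/ml each, TGF-β, BAFF and IL-5. In the KO cells, cre recombinase driven by *Mb1* (*Cd79a*), which is active across the B-cell lineage, deletes a floxed part of *Hif1a*. The mice were on a C57BL/6 background, and the WT controls were littermates, either *Hif1a* f/+ with cre or *Hif1a* f/f without it, so some WT libraries may carry cre and a single deleted allele. The labels do not tell which, and they give neither age nor the number of animals behind a library. Nothing states that the 3 libraries of a genotype came from separate animals, so p-values measure only the spread between these libraries. The study asked how loss of HIF-1α changes gene expression during IgA class switching, and the genes below report how far the same cultures had moved toward antibody secretion.

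A B cell becomes an antibody-secreting cell when a small set of transcription factors replaces the B-cell programme. IRF4 rises on activation and, at high levels, induces *Prdm1*. Its product Blimp-1 represses B-cell identity genes such as *Pax5*, *Bcl6* and *Ciita* and promotes immunoglobulin transcription and secretion. XBP1 enlarges the endoplasmic reticulum for the secretory load, ELL2 favours the secreted form of the heavy chain mRNA, and the J chain joins IgM and IgA into polymers. CD138 (*Sdc1*) and BCMA (*Tnfrsf17*) are surface proteins of mature plasma cells.

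Values are FPKM, the reads counted on a gene per unit of its length and scaled to the total of the library. Values are listed in the order of replicates 1, 2 and 3 of each genotype. The library totals read back from the FPKM steps were 25030210 to 37222477 reads. Differences were tested by limma on log2(FPKM + 1) with Benjamini-Hochberg adjustment over 13312 genes, those whose FPKM averaged 0.5 or more, and fold changes are on that scale, which understates the changes of low genes. A gene was called at an adjusted p under 0.05. With 3 against 3 libraries, an exact permutation test of a single gene cannot go below a two-sided p of 0.1, so it was not used. WT replicate 1 lay with the KO libraries on the first principal component (54.7% of the variance), apart from WT replicates 2 and 3. The Y-linked gene *Ddx3y* reached 43.3 FPKM in KO replicate 2 but at most 0.00945 FPKM in any other library. *Eif2s3y*, *Kdm5d* and *Uty*, also Y-linked, were at 73.2, 19.7 and 11.6 FPKM there and at most 0.079 FPKM elsewhere. KO replicate 2 thus held cells of a male animal, unlike the other libraries, and the effect of sex was not tested. Because of the place of WT replicate 1 on the first component, results are also given without it. That choice was made from these same values and favours a separation of the genotypes, so calls and p-values of that fit are descriptive only. *Hif1a* itself ranged from 36.5 to 49.8 FPKM in WT and from 45.6 to 52.8 in KO libraries, and a whole-gene count cannot show whether the floxed part was gone.

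B-cell identity genes and several secretory genes were abundant side by side. *Pax5*, the keeper of B-cell identity, measured 428 to 607 FPKM over the 6 libraries. Among the plasma cell genes, *Xbp1* was highest with a mean of 302 FPKM, followed by *Jchain* with 149 FPKM and *Irf4* with 118 FPKM. *Slamf7* (43.2 FPKM), *Ell2* (40.5 FPKM) and *Prdm1* (33.4 FPKM) formed a middle tier, and *Creb3l2* had 7.52 FPKM. *Cd28* and *Sdc1* both had a mean of 3.7 FPKM, and *Tnfrsf17* had only 0.113 FPKM. The surface proteins of mature plasma cells, *Sdc1* and *Tnfrsf17*, were at the bottom of the order, so the name plasma cell genes fits the regulators and the J chain of these cultures and not those markers. Over the 6 libraries, the ranges of *Jchain* and *Irf4* overlapped, as did those of *Slamf7*, *Ell2* and *Prdm1* and those of *Cd28* and *Sdc1*, so these neighbours did not differ beyond their spread. *Xbp1* was above *Jchain* in each library. The length behind the FPKM matters for this order. It equalled the mean length of the annotated transcripts for 7 of the 10 genes, and if the longest transcript is used instead, *Slamf7* falls to 19.4 FPKM, below *Ell2* at 28.8 and *Prdm1* at 21.4, with the other places kept.

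**Figure D1:**
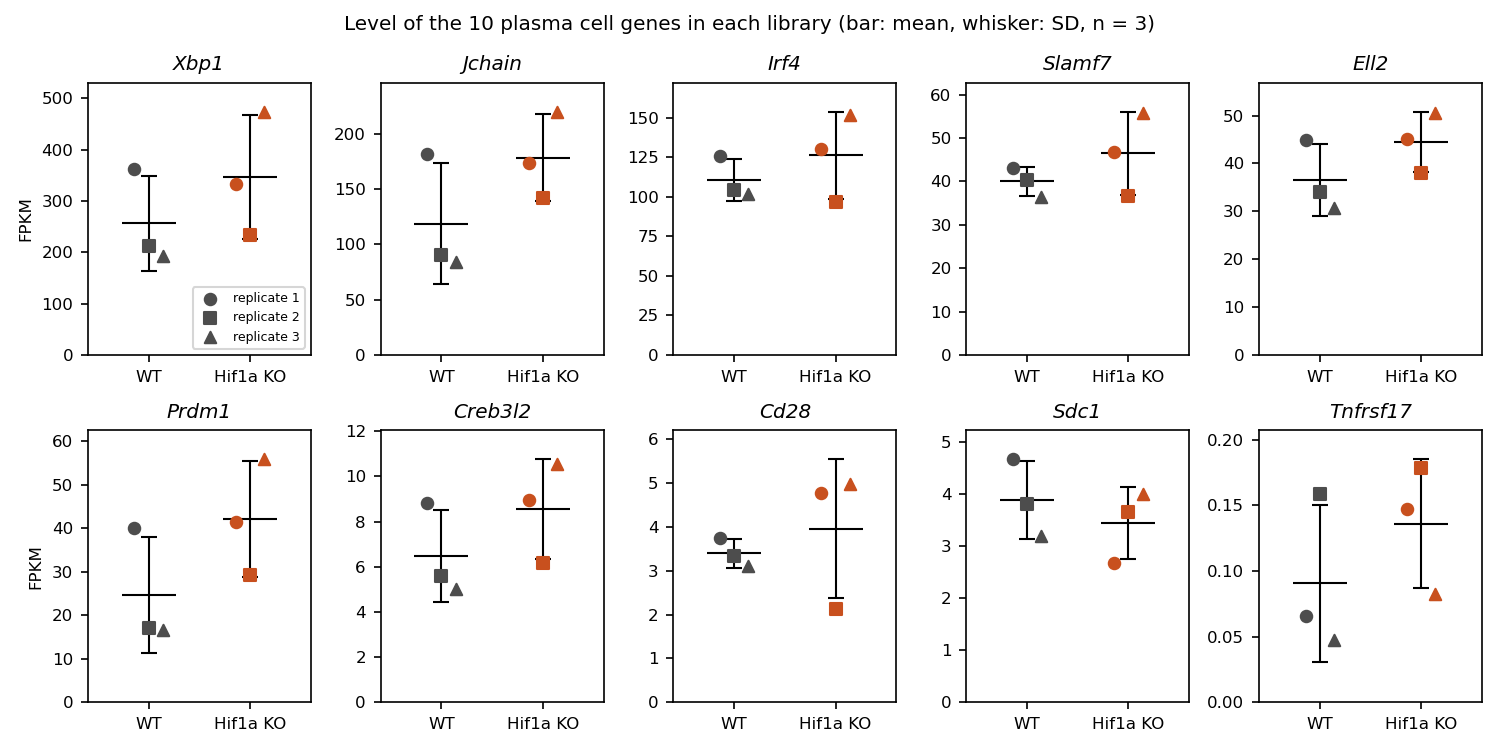
FPKM of each of the 10 plasma cell genes (vertical axis, its own scale per gene) in the 3 WT and 3 Hif1a KO libraries, with the marker shape giving the replicate, the mean as a bar and the SD as a whisker. WT replicate 1 is the highest WT library in 9 of the 10 genes, Tnfrsf17 being the exception, and the groups overlap in each panel.

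Across the genotypes, 8 of the 9 genes that could be tested had a higher mean in *Hif1a* KO cells, with *Prdm1* (0.82), *Jchain* (0.65) and *Xbp1* (0.43) showing the largest log2 fold changes and *Sdc1* the only negative one (−0.14). None of the 9 was called, against 0 of the 13312 genes tested (0%, smallest adjusted p 0.321), and none had an unadjusted p under 0.05, a mark that 929 genes (6.98%) reached. In none of the 9 did the KO values lie all above the WT values, which was the case for 4.06% of the genes tested. In none did they lie all below, for which the share over all genes is not given here. The median log2 fold change of the 9 was 0.29, beside −0.028 over all genes tested, of which 42.1% were higher in KO cells. In bulk RNA, a larger share of secreting cells and more RNA per cell cannot be told apart.

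Without WT replicate 1, a library left out because of its values, 2 of the 9 genes, *Prdm1* and *Jchain*, were called. Both were higher in KO cells. That fit called 485 genes higher (3.64% of those tested) and 766 lower (5.75%), 1251 in all. The median of the 9 was then 0.44. The KO values were all above those of WT replicates 2 and 3 in 5 of the 9 genes, against 18.4% of all genes tested. Leaving out any one of the other 5 libraries called none of the 9. Several values then shrank: *Xbp1* to 0.18 without KO replicate 3 and 0.26 without WT replicate 3, *Irf4* to 0.030 and 0.11, *Slamf7* to 0.052 and 0.13, *Creb3l2* to 0.21 and 0.22, and *Ell2* to 0.19 and 0.17. *Prdm1* was 0.60 and 0.61 in these fits and *Jchain* 0.49 and 0.45. Without KO replicate 2, *Xbp1* was 0.69, *Irf4* 0.35, *Slamf7* 0.35 and *Creb3l2* 0.55. *Sdc1* was −0.0045 without KO replicate 1 and −0.24 without WT replicate 3.

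**Figure D2:**
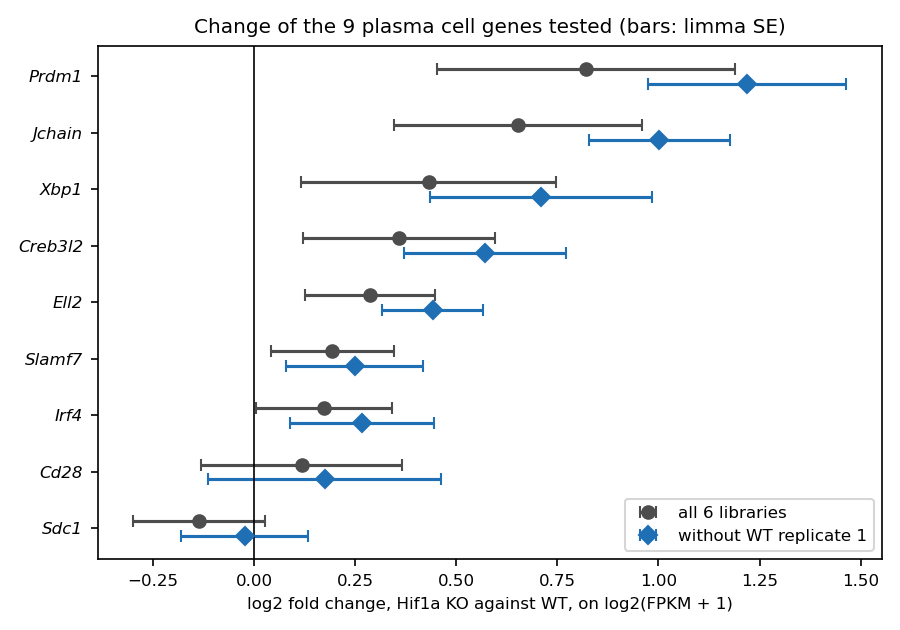
Log2 fold change of Hif1a KO against WT on log2(FPKM + 1) (horizontal axis) for the 9 plasma cell genes tested, with the limma SE as bars, using all 6 libraries (circles) or without WT replicate 1 (diamonds). Prdm1 moves from 0.82 to 1.22 and Jchain from 0.65 to 1.002, while Sdc1 stays at or below 0 in both.

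*Prdm1* (ENSMUSG00000038151) lies on the minus strand of chromosome 10 from 44437177 to 44528501 in GRCm38 (mm10) and encodes Blimp-1, the repressor that commits cells to secretion. WT libraries had 40.0, 17.1 and 16.7 FPKM, and *Hif1a* KO libraries 41.3, 29.2 and 55.9 FPKM. Only WT replicate 1 reached the KO range, and the other WT libraries were below each KO library. The means were 24.6 ± 13.3 in WT and 42.1 ± 13.4 in KO cells (SD, n = 3 each), 1.71 times as high in KO. The WT libraries alone spanned a 2.39-fold range, wider than the difference between the genotypes. On the log2 scale the difference was 0.82 with an SE of 0.37 (limma, adjusted p = 0.626). It was 1.22 with an SE of 0.25 (limma, adjusted p = 0.0369) once WT replicate 1 was left out. Between 1469 and 5641 reads per library stood behind these values, so counting error was small beside the spread.

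Because the study concerns a hypoxia-inducible factor, the promoters of the plasma cell genes were searched for the cores of its binding element, ACGTG and GCGTG, on both strands. Promoter sequences of RefSeq (GRCm38.p6, 250 bases before to 50 after the start) were at hand for 9 of the 10 genes, without *Cd28*. GCGTG occurred in 3 of the 9 (*Prdm1*, *Sdc1* and *Irf4*), against 32.4% of all 32851 promoters, and ACGTG in 2 of the 9 (*Slamf7* and *Jchain*), against 19.6%. The 250 bases before the start are shown for *Prdm1* and *Jchain*, the genes with the largest differences, with the matches in capitals. Both genes are on the minus strand, and the sequence is given 5′ to 3′ along the gene, so CACGC is GCGTG and CACGT is ACGTG on the other strand. *Prdm1* held 2 matches, from 109 to 105 and from 77 to 73 bases before the start, and *Jchain* held 1, from 69 to 65 bases before it. The *Prdm1* stretch ends where the coding transcript Prdm1-201 begins, and the gene span reaches further upstream only through Prdm1-203, a retained-intron transcript. A match only says that these letters are present.
Prdm1 promoter, chr10:44458749-44458998: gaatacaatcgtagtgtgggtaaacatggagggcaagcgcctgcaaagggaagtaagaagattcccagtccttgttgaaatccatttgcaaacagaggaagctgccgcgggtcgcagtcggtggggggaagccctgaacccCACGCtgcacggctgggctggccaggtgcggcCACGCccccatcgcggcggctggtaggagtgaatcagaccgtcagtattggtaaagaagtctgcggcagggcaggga
Jchain promoter, chr5:88527898-88528147: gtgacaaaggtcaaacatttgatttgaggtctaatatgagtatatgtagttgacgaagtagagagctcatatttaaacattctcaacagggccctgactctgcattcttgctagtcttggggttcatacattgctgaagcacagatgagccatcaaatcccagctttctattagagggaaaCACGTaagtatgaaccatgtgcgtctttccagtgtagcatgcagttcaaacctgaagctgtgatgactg

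*Irf4* (ENSMUSG00000021356, plus strand of chromosome 13 from 30749226 to 30766976) acts before *Prdm1*. It stood at 126, 104 and 101 FPKM in the WT libraries and at 130.1, 96.9 and 152 FPKM in the KO libraries. The highest and the lowest library were both KO, so the genotypes overlapped fully. Its log2 difference of 0.17 was about as large as its SE of 0.17 (limma, adjusted p = 0.727), and without WT replicate 1 it was 0.27 (limma, adjusted p = 0.365). *Irf4* was the steadiest of the 3 transcription factors named here in WT, with a 1.24-fold range against 2.39 for *Prdm1* and 1.88 for *Xbp1*.

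*Xbp1* (ENSMUSG00000020484, plus strand of chromosome 11 from 5520659 to 5525893) encodes the factor that drives the secretory pathway. It reached 363, 213 and 193 FPKM in the WT libraries, compared with 334, 233 and 474 FPKM in the KO libraries. KO replicate 3 was the highest library, WT replicate 1 came second, and KO replicate 2 was close to the remaining WT libraries. KO exceeded WT by 0.43 on the log2 scale with an SE of 0.32 (limma, adjusted p = 0.662). Without WT replicate 1 the value was 0.71 with an SE of 0.27 (limma, adjusted p = 0.150). The XBP1 protein is active only after the enzyme IRE1 has cut a short stretch out of the mRNA, which shifts the reading frame. That stretch of 26 bases, in coding exon 4 of the 5 exons of transcript Xbp1-201, is shown because it limits what these values can say.
Xbp1 stretch cut out by IRE1, chr11:5524282-5524307, plus strand: cactcagactatgtgcacctctgcag
A count over the whole gene takes in cut and uncut mRNA alike, so the FPKM of *Xbp1* gives the amount of its mRNA and not of its active form.

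A further 19 genes of the secretory pathway that XBP1 is known to induce were examined, and 19 of 19 were tested. They include *Hspa5* (BiP, the main chaperone of the endoplasmic reticulum), with 589 ± 57.3 FPKM in WT and 635 ± 80.4 in KO cells, and the disulfide isomerase gene *Pdia6*, with 315 ± 59.8 and 362 ± 50.1 FPKM (SD, n = 3 each). Of the 19, 17 had a higher mean in KO cells and 2 a lower one, but none was called, none had an unadjusted p under 0.05 and in none did the genotypes separate. Their median log2 fold change was 0.12, and 0.22 without WT replicate 1, where again none was called.

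*Creb3l2* (ENSMUSG00000038648, minus strand of chromosome 6 from 37327255 to 37442146) encodes a membrane-bound transcription factor related to ATF6 that is released from the endoplasmic reticulum by cleavage. The WT libraries gave 8.83, 5.61 and 5.03 FPKM and the KO libraries 8.96, 6.18 and 10.5 FPKM. As in *Prdm1*, WT replicate 1 lay inside the KO range and the other WT libraries lay below it. KO and WT differed by 0.36 on the log2 scale, SE 0.24 (limma, adjusted p = 0.651), or by 0.57 without WT replicate 1 (limma, adjusted p = 0.123).

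*Ell2* (ENSMUSG00000001542, plus strand of chromosome 13 from 75706757 to 75772364) encodes an RNA polymerase II elongation factor. WT cells had 44.9, 34.1 and 30.6 FPKM, and KO cells had 45.1, 38.0 and 50.5 FPKM. The KO libraries were again above WT replicates 2 and 3, and WT replicate 1 was close to KO replicate 1. *Ell2* differed by 0.29 on the log2 scale, SE 0.16 (limma, adjusted p = 0.626), or by 0.44 without WT replicate 1 (limma, adjusted p = 0.0786). Exons of *Ell2* overlap those of 1700037F03Rik on the opposite and of Gm23127 on the same strand, and the strand setting of the counting is not given in the sources used here, so a part of these reads is uncertain.

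*Ell2* and *Creb3l2* were the 2 of 9 genes whose promoter held TGACGT, the core bound by XBP1 and by the CREB3 and ATF6 families, which 7.51% of all promoters held. They are shown as 30-base windows along the gene with the core in capitals. In the *Ell2* window, 2 matches overlap on opposite strands in a palindrome starting 198 bases before the RefSeq start. In GENCODE the transcript Ell2-201 starts further upstream, and the window lies in an exon of its 5′ UTR. The *Creb3l2* match starts 196 bases before the start.
Ell2 window, chr13:75707275-75707304, plus strand: aagacgagacaTGACGTCAgataagattaa
Creb3l2 window, chr6:37442326-37442355, minus strand: gcgttccccagTGACGTaaaagaccctctc
Of the other motifs searched, AAANNGAAA, the repeat bound by interferon regulatory factors, was in 1 of the 9 promoters (*Tnfrsf17*), against 10.6% of all, and GGAANNGAA, bound by IRF4 together with an Ets factor, was in none of the 9, against 8.24% of all.

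*Jchain* (ENSMUSG00000067149, minus strand of chromosome 5 from 88519809 to 88527891) encodes the peptide that links IgA dimers and IgM pentamers for secretion. In the WT libraries 182, 90.5 and 84.0 FPKM were measured, and in the KO libraries 173, 142 and 220.3 FPKM. WT replicate 1 was the second highest library, whereas the other WT libraries were well below the lowest KO library. The means were 119 ± 54.6 in WT and 179 ± 39.4 in KO cells (SD, n = 3 each), and the WT libraries spanned a 2.16-fold range against a ratio of 1.503 between the genotypes. *Jchain* differed by 0.65 on the log2 scale with an SE of 0.31 (limma, adjusted p = 0.626). Leaving out WT replicate 1 gave 1.002 with an SE of 0.17 (limma, adjusted p = 0.0255).

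The mRNAs of the antibody chains themselves were followed too, and 11 of the 12 constant genes listed were tested. *Ighm* ranged from 5741 to 9310 FPKM and *Igkc* from 4196 to 7148 FPKM. *Igha*, the heavy chain of IgA, was at 62.2, 34.6 and 32.3 FPKM in WT and at 66.9, 58.0 and 74.5 FPKM in KO libraries. WT replicate 1 was inside the KO range here too. The difference was 0.67 on the log2 scale, SE 0.24 (limma, unadjusted p = 0.0284, adjusted p = 0.626), and *Igha* was the only one of the 11 with an unadjusted p under 0.05. Of the 11, 9 had a higher mean in KO cells, and their median log2 fold change was 0.24, or 0.41 without WT replicate 1. In that fit 4 of the 11 were called, all higher, beside 3.64% of all genes tested. They were *Igha* (log2 difference 0.96, limma, adjusted p = 0.0083) and, named because of these calls, *Ighg2b*, *Ighd* and *Ighg3*. The whole-gene FPKM of *Igha* also takes in germline transcripts that precede switching, so it is not a measure of switched cells.

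Of the surface genes, *Sdc1* (ENSMUSG00000020592, plus strand of chromosome 12 from 8771323 to 8793715), which encodes CD138, was low, with 4.67, 3.80 and 3.19 FPKM in WT and 2.68, 3.67 and 4.01 FPKM in KO libraries. Its highest library was WT and its lowest KO, with the rest mixed between them. Its log2 difference was −0.14 with an SE of 0.16 (limma, adjusted p = 0.771), and −0.023 without WT replicate 1. Only 98 to 254 reads per library fell on this gene.

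*Tnfrsf17* (ENSMUSG00000022496, plus strand of chromosome 16 from 11313812 to 11320074) encodes BCMA, the receptor through which APRIL and BAFF sustain long-lived plasma cells. Only 2, 4 and 1 reads fell on it in the WT libraries and 3, 5 and 2 reads in the KO libraries. These numbers are too low to compare the genotypes, and the gene was not tested. The related receptor gene *Tnfrsf13b* (TACI) was at 1019 to 1118 FPKM over the 6 libraries, with a log2 difference of 0.014 (SE 0.065).

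*Slamf7* (ENSMUSG00000038179, minus strand of chromosome 1 from 171632403 to 171653035), a receptor of the SLAM family, showed 43.2, 40.4 and 36.4 FPKM in WT and 46.9, 36.6 and 55.9 FPKM in KO libraries. KO replicates 1 and 3 were above each WT library and KO replicate 2 was among them. The difference came to 0.19 on the log2 scale, SE 0.15 (limma, adjusted p = 0.678). An exon of Gm37787 on the opposite strand overlaps the gene, so some reads are uncertain.

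*Cd28* (ENSMUSG00000026012, plus strand of chromosome 1 from 60716800 to 60773359), best known as a costimulatory receptor of T cells and also carried by plasma cells, came to 3.75, 3.32 and 3.11 FPKM across the WT libraries. In the KO libraries it was 4.76, 2.13 and 4.97 FPKM. The KO libraries enclosed the WT libraries from both sides. Its log2 difference was 0.12, SE 0.25 (limma, adjusted p = 0.872), and it turned to −0.021 without KO replicate 1 and to −0.046 without KO replicate 3. T cells would carry *Cd28* as well. Of the 12 T-cell genes listed, *Lck* (90.1 to 137 FPKM) and *Cd5* (2.45 to 3.55 FPKM), both of which B cells can also express, were above the lowest *Cd28* value. The other 10 stayed below 1 FPKM in each library, among them the receptor genes *Cd3d*, *Cd3e*, *Cd3g* and *Trac* with at most 0.284, 0.134, 0.902 and 0.685 FPKM.

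The plasma cell genes shared an order of the libraries. WT replicate 1 was the highest WT library in 9 of the 9 genes tested, and WT replicate 3 was the lowest in 9 of 9, while over all genes tested these shares were 33.3% and 25.0%. KO replicate 3 was the highest KO library in 9 of 9 (34.5% of all genes) and KO replicate 2 the lowest in 8 of 9 (32.0% of all genes), with *Sdc1* as the exception. Set against the gene's own mean over the 6 libraries, the median of the 9 genes was 0.39 in KO replicate 3, 0.25 in WT replicate 1, 0.22 in KO replicate 1, −0.21 in KO replicate 2, −0.22 in WT replicate 2 and −0.37 in WT replicate 3, on the log2 scale. WT replicate 1 lay within the range of the KO libraries in 8 of the 9, again with *Sdc1* as the exception, and in 64.2% of all genes tested.

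The other secretory genes were counted in the same way. KO replicate 3 was the highest and KO replicate 2 the lowest KO library in 19 of the 19 XBP1 targets, and WT replicate 1 was the highest WT library in 16 of them. Among 20 tested genes of a wider list of antibody-secreting cells, these counts were 14, 12 and 14. The most abundant genes of that list were *Tnfrsf13b* and *Mzb1*, a chaperone of IgM assembly in the endoplasmic reticulum. *Mzb1* had 565 ± 110 FPKM in WT and 662 ± 166 in KO cells (SD, n = 3 each). Of the 20, 15 had a higher mean in KO cells (median log2 difference 0.16), and none was called or had an unadjusted p under 0.05. Without WT replicate 1, 4 of the 20 were called, beside 3.64% of all genes called higher, and the 4 were higher: *Ikzf3*, *Pou2af1*, *Eaf2* and *Txndc5*, named here after their values were seen.

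**Figure D3:**
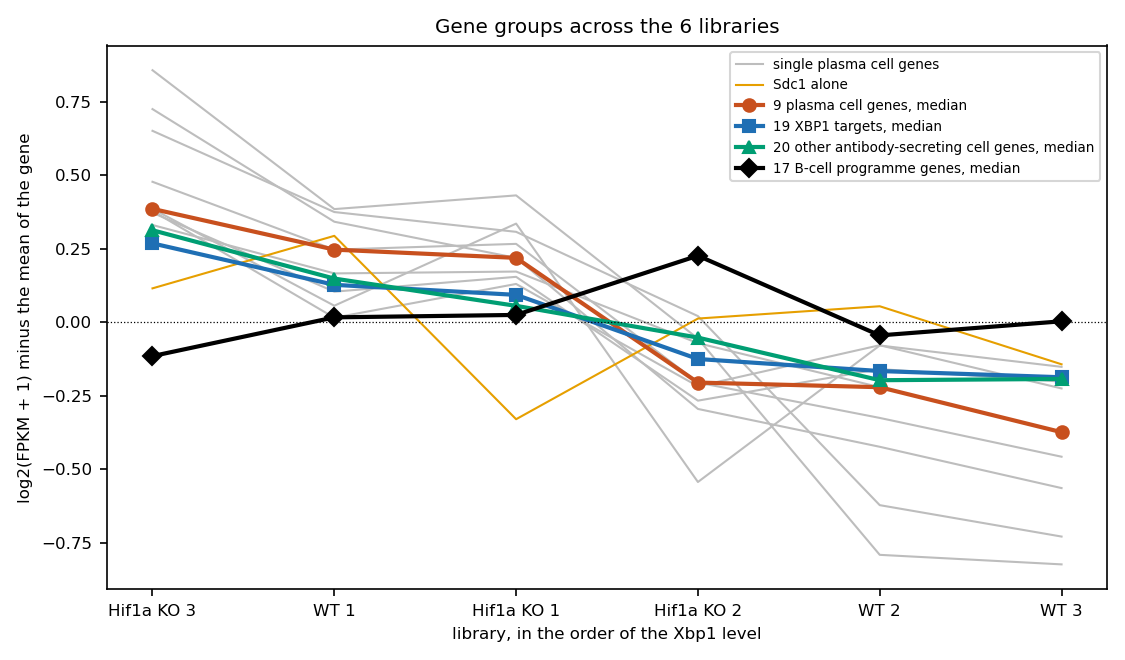
Median over the genes of each group of log2(FPKM + 1) minus the gene's own mean over the 6 libraries (vertical axis), with the libraries ordered by their Xbp1 level (horizontal axis). Grey lines are single plasma cell genes and the orange line is Sdc1. The plasma cell genes, the XBP1 targets and the other antibody-secreting cell genes are highest in KO replicate 3 and lowest in WT replicates 2 and 3, whereas the B-cell programme peaks in KO replicate 2.

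The genes that Blimp-1 is known to oppose, or that mark B cells before secretion, showed no common direction. Of 17 tested, 8 had a higher and 9 a lower mean in KO cells (median log2 difference −0.00039), and none was called. Their median over the libraries was highest in KO replicate 2 (0.23) and lowest in KO replicate 3 (−0.12). These are the KO libraries with the lowest and the highest levels of the plasma cell genes. KO replicate 2 also held cells of a male animal, and the effect of sex on this order was not tested. The WT libraries showed no such opposite order. The median of the B-cell programme was 0.016, −0.045 and 0.0027 in WT replicates 1, 2 and 3, and WT replicate 1 was highest in both groups of genes. The most abundant was *Cd79a*, with 907 ± 257 FPKM in WT and 728 ± 305 in KO cells (SD, n = 3 each). *Cd79a* is also the gene whose promoter drives cre.

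Among these 17, *Myc*, which Blimp-1 represses, had 32.4, 49.2 and 51.7 FPKM in WT and 30.8, 29.95 and 35.8 FPKM in KO libraries. WT replicate 1 was with the KO libraries, and the log2 difference was −0.43, SE 0.18 (limma, unadjusted p = 0.0478, adjusted p = 0.626). Without WT replicate 1, *Cd79b*, *Irf8* and *Ebf1* were called higher and *Myc* (log2 difference −0.64) lower. *Cd79b*, *Irf8* and *Ebf1* are named here because of these calls.

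Relatives and partners of the plasma cell genes, from the other syndecans to the other SLAM and CREB3 proteins, were tested for 24 genes. Of these, 16 had a higher and 8 a lower mean in KO cells (median log2 difference 0.024), and none was called. Without WT replicate 1, 6 of the 24 were called higher and 3 lower, beside 3.64% and 5.75% of all genes tested. The 6 higher ones were *Ctla4* (log2 difference 1.37), *Pigr* (1.11), *Sdc4* (0.66), *Irf2* (0.41), *Irf8* (0.33) and *Atf6* (0.32). The 3 lower ones were the costimulatory ligand genes *Cd80* (log2 difference −1.25) and *Cd86* (−0.60) and the SLAM family gene *Slamf6* (−0.46). *Ctla4*, *Sdc4*, *Atf6*, *Cd80*, *Cd86* and *Slamf6* are named here because of these calls. The smallest unadjusted p-values belonged to *Cd48*, the SLAM family partner of CD244, with 121 ± 7.28 FPKM in WT and 137 ± 2.86 in KO cells, and to *Irf2*, a relative of *Irf4*, with 38.0 ± 5.64 and 46.5 ± 1.98 FPKM (SD, n = 3 each). Their log2 fold changes were 0.17 and 0.29. *Aff4*, a scaffold of the super elongation complex in which ELL2 works, had a log2 fold change of 0.17, and *Creb3l1*, a low relative of *Creb3l2* that stayed under 1 FPKM, had −0.27. These 4 had unadjusted p-values of 0.0296, 0.0298, 0.0478 and 0.0377, did not overlap between the genotypes and had an adjusted p of 0.626 each from limma. A further relative, *Pigr*, which encodes the receptor that carries polymeric IgA across epithelia, had an unadjusted p of 0.0481 (limma) with overlapping genotypes and a log2 difference of 0.73. Thus 5 of the 24 had an unadjusted p under 0.05, against 6.98% of all genes, and 3 had KO values all above WT, against 4.06%. *Creb3l1* had KO values all below WT, for which the share over all genes is not given here. *Irf8*, which counteracts *Irf4* in B cells, was the second most abundant relative, with 416 ± 59.8 FPKM in WT and 481 ± 20.4 in KO cells (SD, n = 3 each).

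The genes whose values ran most like *Prdm1* over the 6 libraries, by Pearson's r of log2(FPKM + 1) and leaving out plasma cell and immunoglobulin variable genes, were *Lax1*, *Maf*, *Rhoh*, *Twsg1* and *Fez2*, with r from 0.998 to 0.999. For *Jchain* they were *Snx9*, *Rhoh*, *Csrnp1*, *Vsir* and *Chst11*, with r from 0.997 to 0.999. The points are 6 libraries that share the split of WT replicates 2 and 3 from the others, and 317 genes had an r above 0.95 with *Prdm1* and 390 with *Jchain*.

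Markers of other cells were summed over whole lists to show what moved beside these results. All 11 macrophage genes together had 74.4, 170.2 and 119 FPKM in WT replicates 1, 2 and 3 and 67.5 to 79.5 FPKM in KO libraries, most of it *Adgre1*, and *Lyz2* was 58.3 and 26.2 FPKM in WT replicates 2 and 3, against 0.5996 to 6.18 FPKM in the other libraries. These 2 WT libraries were also those with the lowest *Prdm1*, *Jchain* and *Xbp1*. All 7 neutrophil genes together had 32.9 FPKM in WT replicate 1 and 0 to 0.521 FPKM elsewhere. All 12 T-cell genes together had 94.9 to 136 FPKM in WT and 137 to 141 FPKM in KO libraries, of which *Lck* alone made up 90.1 to 137 FPKM, while *Themis* was at 0 in each library. The 9 genes of NK and innate lymphoid cells, a further source of *Slamf7*, had 2.42 to 3.79 FPKM in WT and 1.87 to 3.10 FPKM in KO libraries, with *Gzma* at 0 in each library. The 8 dendritic cell genes had 17.3 to 23.0 FPKM in WT and 14.5 to 21.2 FPKM in KO libraries, and the 8 B-cell markers 3060 to 3935 and 3069 to 4102 FPKM. The part of other cells in the differences of the plasma cell genes was not tested.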

How the data were processed

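Using TopHat, the authors mapped read pairs to mm10, then counted them on genes by HTSeq and deposited FPKM values of 6 libraries (3 WT, 3 *Hif1a* KO). Annotation release, strand option and treatment of multiply aligned reads are not given in the sources used here. The unit was FPKM and not counts, so the authors' count test (DESeq) was not repeated. Libraries were grouped by their titles, and no pair was identical (0 pairs). GENCODE vM21 (GRCm38) supplied coordinates and symbols, and named 46488 of 46983 genes. Depth was recovered because FPKM are whole multiples of the worth of 1 read. In genes with 1 transcript, 94.9% to 95.3% of low values were whole within 0.02 reads, and a length giving whole reads was found for 13312 of 13312 genes tested. In the shallowest library (25030210 reads), a single read adds 0.040 FPKM to a 1-kb gene.

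limma 3.58.1 (R 4.3.3, lmFit and eBayes with trend) was fitted to log2(FPKM + 1) without covariates, after a check on simulated data. Genes averaging 0.5 FPKM or more were tested. Alternatives were a pseudocount of 0.1, no filter or an average of 5 FPKM, median-ratio and quantile scaling, immunoglobulin genes removed, eBayes without trend or robust, a replicate block, voom on recovered reads, and each library left out. Python 3.11.15, pandas 2.3.3 and matplotlib 3.10.9 made tables and figures. Named genes were all 10 plasma cell genes and, of each other list, those with an unadjusted p under 0.05 (up to 4) and the 2 highest. The genes, lists and motifs were chosen with earlier results of these data known. The symbols Fam46c (now Tent5c, which was used) and Cd244 had no match. Some items that the rule names are not reported here.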

Additional observations from a re-analysis of the deposited data

How the results depend on the processing

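With all 6 libraries, none of the 10 alternative settings that kept every library called a gene, with voom on the recovered reads included. Leaving out 1 library in turn gave 0 to 1251 genes called and 0 to 2 of the plasma cell genes, the highest numbers being those without WT replicate 1, while 1 gene was called without *Hif1a* KO replicate 1. The number of plasma cell genes with a higher mean in KO cells stayed at 7 or 8 under each setting. It was 7 of the 9 tested without KO replicate 1 or KO replicate 3. With an average of at least 5 FPKM, *Cd28* and *Sdc1* were not tested, and the remaining 7 were all higher. The median log2 difference of the plasma cell genes was lowest (0.17) when WT replicate 3 and highest (0.44) when WT replicate 1 was left out. *Prdm1* ranged from 0.60 to 1.22 and *Jchain* from 0.45 to 1.002. The direction of *Cd28* turned to −0.021 without KO replicate 1 and −0.046 without KO replicate 3 (0.42 without KO replicate 2), the cause was not tested, and that of the other 8 genes was kept. Same-numbered libraries deviated from their group means with correlations of −0.099, 0.14 and −0.28 over genes, and not every library was closest to its own number. WT replicate 1 lay apart from the other WT libraries and weighs on these deviations. The correlations therefore cannot tell whether same-numbered libraries were pairs. With the number as a replicate block, 0 genes were called and *Prdm1* kept 0.82. The low depth on *Tnfrsf17* (1 to 5 reads) and *Sdc1* (98 to 254 reads) limits what can be seen of these genes.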
